A study of Mus musculus with 4 samples.

Results

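Integrins, the ligand of selectins and the immunoglobulin-type adhesion receptors of leukocytes are described here across lineage-negative mouse bone marrow cells that carried FLT3-ITD and the same kind of cells that carried the vector pMIG. The set was defined by gene name as 33 genes, made up of 15 integrin subunits and 18 other surface molecules, and every probe whose platform symbol was one of them was taken. Of the 33 genes, 32 were matched to a probe (46 probes in all), out of 17034 gene symbols on the array. Itgal, the αL subunit of LFA-1, was matched to none and is not analysed here. The name of the set includes selectins, but its members hold only their ligand gene Selplg and no selectin.

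Cells of both groups were wild type bone marrow cells depleted of cells with mature lineage markers, and total RNA was read on Illumina bead arrays. In 2 samples FLT3-ITD had signalled for 48 h. FLT3-ITD is a form of the receptor kinase FLT3 in which a stretch inside the protein is repeated, and it is found in acute myeloid leukaemia. The other 2 samples carried pMIG, a retroviral vector, without it. The labels give no strain, age or sex. Nothing in them says that the replicates were separate cultures or mice, and the p-values cover the spread among these 4 samples alone, part or all of which may be technical.

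Integrins are pairs of 1 α and 1 β subunit that join the cell to matrix proteins or to receptors on other cells, and they bind firmly only once signals inside the cell have activated them. In bone marrow, α4 and β1 integrins hold progenitors to Vcam1 on stroma, β2 integrins let myeloid cells bind ICAM molecules, and αEβ7 binds E-cadherin. Selplg, which encodes PSGL-1, lets leukocytes roll on selectins, and the junctional receptors guide them between endothelial or epithelial cells.

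Array depth was alike in both groups. Each array detected 51.9% and 52.4% of its 26512 probes in FLT3-ITD, against 53.5% and 51.5% in pMIG, and replicates correlated at 0.991 and 0.99 across the 14178 probes tested, which are not independent replicates. Of 10 stem and progenitor genes 7 were tested, among them Gata2, Meis1, Cd34 and Myb, while Kit was not analysed here. Hlf, Mecom and Procr read near background, and Procr was detected on no FLT3-ITD array. Gata2 is also on the mast cell list used below. These genes do not tell what part of the cells were progenitors. Signal for mature lymphoid genes was mixed, and that of Cd3d was near background. Of the 10 T and natural killer cell genes, Nkg7, Klrd1 and Cd3d were detected on all arrays, Cd3e, Cd3g, Gzmb and Klrb1c on 1 or 2, and Cd4, Cd8a and Ncr1 on none. All 9 neutrophil genes with a probe, among them S100a8 and Ltf, were also tested. Their summed linear signal was 123086 to 124028 in FLT3-ITD and 109298 to 113481 in pMIG. That of the stem and progenitor genes was far lower, 3120 to 3124 and 3195 to 3321. The Flt3 probe was detected on no array; its place in the transcript is unknown here, and it is no check of the transgene.

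Promoter sequences from RefSeq (build GRCm38.p6) are shown for 3 members that read higher in FLT3-ITD (Jaml, Itgb7 and F11r) and 1 that read lower (Spn). These 4 were picked for display after both the values and the motif matches had been seen, from members whose window holds a match. Ninj1, first chosen, was replaced by F11r because it held none, and Itga5, which also had a small p, held none either, so the 4 do not represent the set. Each is the 250 bases before the transcription start, 5′ to 3′ on the gene's own strand, and capitals mark a match to 1 of the motifs named after them.
Jaml, chr9:45078933-45079182, plus strand: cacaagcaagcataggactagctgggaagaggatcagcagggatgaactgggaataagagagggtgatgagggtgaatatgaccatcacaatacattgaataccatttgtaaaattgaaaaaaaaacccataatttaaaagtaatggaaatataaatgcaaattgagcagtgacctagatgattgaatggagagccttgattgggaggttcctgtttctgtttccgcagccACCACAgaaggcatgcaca
Itgb7, chr15:102231936-102232185, minus strand: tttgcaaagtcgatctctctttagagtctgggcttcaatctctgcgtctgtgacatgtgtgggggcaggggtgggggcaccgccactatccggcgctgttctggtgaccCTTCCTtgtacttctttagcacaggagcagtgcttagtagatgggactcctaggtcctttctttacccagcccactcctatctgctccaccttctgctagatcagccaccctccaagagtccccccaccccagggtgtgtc
F11r, chr1:171437311-171437560, plus strand: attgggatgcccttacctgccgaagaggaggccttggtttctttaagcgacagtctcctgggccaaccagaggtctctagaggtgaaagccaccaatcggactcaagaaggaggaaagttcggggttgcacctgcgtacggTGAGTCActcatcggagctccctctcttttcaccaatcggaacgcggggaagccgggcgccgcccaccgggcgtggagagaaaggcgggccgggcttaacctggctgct
Spn, chr7:127137824-127138073, minus strand: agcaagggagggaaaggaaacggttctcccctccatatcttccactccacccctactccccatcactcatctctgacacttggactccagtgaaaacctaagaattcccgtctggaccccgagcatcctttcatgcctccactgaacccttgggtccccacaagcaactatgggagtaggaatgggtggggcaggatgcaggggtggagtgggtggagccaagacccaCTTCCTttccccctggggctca

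Both strands of these windows were searched for a STAT motif (TTCNNNGAA), an ETS core (AGGAAG), a RUNX core (TGTGGT) and an AP-1 motif (TGANTCA), none of which overlapped in the 4 windows shown. The RUNX core of Jaml starts 19 bases before the transcription start, the ETS core of Itgb7 141 bases, the AP-1 motif of F11r 109 bases and the ETS core of Spn 22 bases before it. Of the 22 members with a promoter in the table, 9 held the ETS core, against 29.5% of all 32851 promoters. The RUNX core was in 4 of the 22, against 14% of all, and the STAT and AP-1 motifs were in 1 each (Icam1 and F11r), against 7.02% and 6.75%. A match of letters is a description and not a binding site.

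The comparison asked which adhesion transcripts differed after 48 h of FLT3-ITD signalling. The largest differences were higher signal in FLT3-ITD for Jaml, a junctional receptor of leukocytes, and for Itgae, the α subunit of integrin αEβ7. Its partner Itgb7 and the junctional gene F11r also read higher. Lower signal in FLT3-ITD was read for Icam2, Vcam1 and Esam, and for Spn and Ninj1 near background. The transcripts of the broadly expressed leukocyte receptors Selplg, Cd44, Cd47, Cd53 and Emb differed by 0.08 or less on the log2 scale on their brightest probes. In limma, fitted on all 14178 tested probes with Benjamini-Hochberg adjustment, 0 of the 40 tested member probes passed an adjusted p of 0.05, against 0.106% of all probes (15, all of them higher in FLT3-ITD). At an unadjusted p under 0.05 there were 12 member probes, 7 higher and 5 lower, which is 30% of the 40 against 16.7% of all probes (8.41% higher and 8.29% lower). With 2 arrays a group, the smallest p that an exact permutation test allows is 0.333, and every call here leans on information about spread that limma pools over probes.

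A probe was tested where its detection p was under 0.05 on at least 2 of the 4 arrays, and its log2 signal is background-corrected and quantile-normalized. This kept 40 of the 46 member probes and 30 of the 32 genes. A probe can enter through the group where it is bright, so counts over the tested probes describe them and support nothing further. The result depended on how the model treats spread. With a variance trend, in which the expected spread follows the signal of a probe, 6 of the 40 passed, 5 higher and 1 lower, or 15% against 7.92% of all probes (4.1% higher and 3.82% lower). They were the probes of Jaml, Itgb7, Icam2 and Pecam1 and the bright pair of Itgae. Both FLT3-ITD arrays lay above both pMIG arrays for 12 member probes (30%, against 23.8% of all probes) and below both for 7 (17.5%, against 25.6%), and 49.4% of all probes did 1 or the other. The median difference was 0.09 over the member probes and -0.01 over all probes. In these bulk samples, fewer cells of a type and less RNA per cell cannot be told apart.

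**Figure D1:**
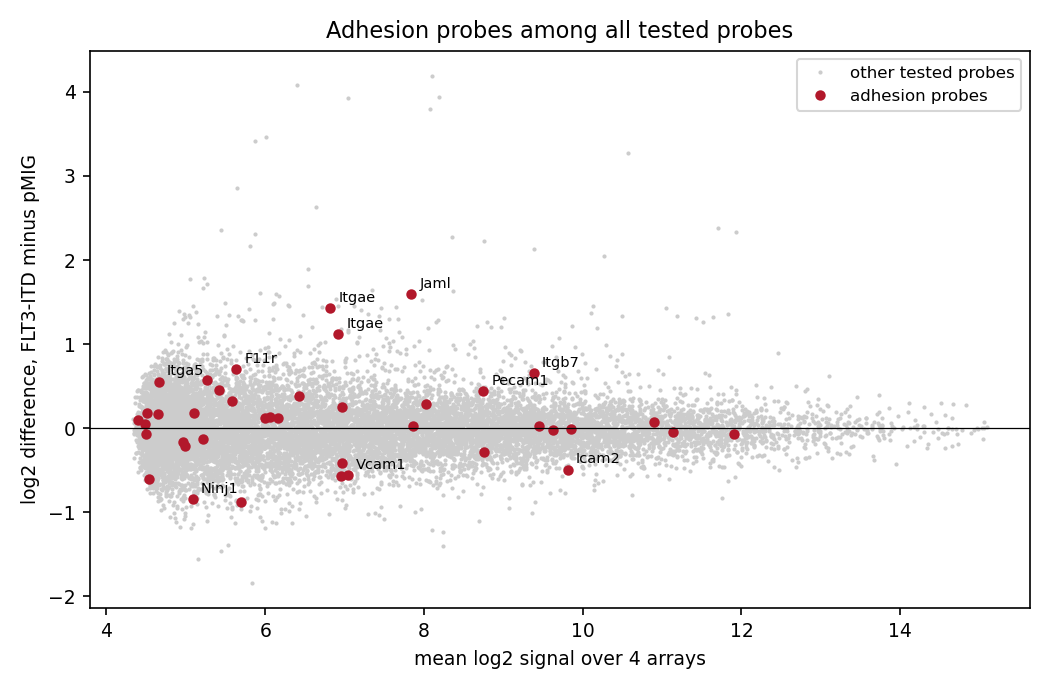
Each point is a tested probe, with its mean log2 signal over 4 arrays on the horizontal axis and its log2 difference, FLT3-ITD minus pMIG, on the vertical axis. Adhesion probes, in red, run from -0.88 (Spn) to 1.59 (Jaml), and the bright ones lie mostly near 0.

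Among α4, αE and β7 integrins, the subunits of αEβ7 read higher in FLT3-ITD. Itgae encodes the αE subunit (CD103), known from intraepithelial lymphocytes and from a class of dendritic cells. Its brightest probe, ILMN_1217629, read 7.50 and 7.46 on the FLT3-ITD arrays, against 6.40 and 6.33 on the pMIG arrays (log2 signal). A second bright probe, ILMN_2699898, read 7.62 and 7.45 in FLT3-ITD, against 5.96 and 6.26 in pMIG. On both probes the groups stood well apart, by more than the spread within either. The fold was 2.18 on the first probe (log2 difference 1.12, SE 0.11, 95% interval 0.82 to 1.42, adjusted p = 0.0706 in limma) and 2.69 on the second (log2 difference 1.42, SE 0.16, 95% interval 1.00 to 1.85, adjusted p = 0.0833 in limma). Without background correction the log2 differences were smaller, 0.67 and 0.83, and passed (adjusted p = 0.000172 and 4.57e-05).

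Not all Itgae probes read this. A pair of dim probes (ILMN_2628899 and ILMN_1249573) differed by 0.17 and 0.18 with overlapping groups, and another pair was detected on no array. Itgb7, the β subunit that pairs with αE or with α4, read 9.79 and 9.64 in FLT3-ITD, against 9.10 and 9.01 in pMIG. Its groups did not overlap either, and the fold was 1.58 (log2 difference 0.66, SE 0.13, 95% interval 0.33 to 0.99, adjusted p = 0.168 in limma). The single probe of Itga4, the α4 subunit that pairs with β1 or β7, was detected on no array. Its place in the transcript is unknown here, so this does not show that the transcript was absent.

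Marker genes of cells that can carry αEβ7 were read beside these values. Of 10 dendritic cell and MHC class II genes, 9 were tested and 0 passed in either direction, or 5 higher with the variance trend. Their summed linear signal was 13462 to 13474 in FLT3-ITD, against 5509 to 5852 in pMIG. That sum is mostly Cd74 and the MHC class II genes H2-Ab1, H2-Eb1 and H2-Aa. Signals of Itgax, Siglech, Batf3 and Ccr7 were near background, and Flt3 was detected on no array. Siglech differed by 0.17 and Ccr7 by -0.27. The marker genes named here and further on were picked after their values were seen. Cd74, the invariant chain of MHC class II, differed by 1.32, while Itgax, whose αX subunit marks dendritic cells, was detected on 1 array of each group and differed by -0.08, and Batf3, a transcription factor of CD103-bearing dendritic cells, by 0.22. Of 10 T and natural killer cell genes, 4 were tested with 0 passing in either direction (1 higher and 1 lower with the variance trend), with a summed signal of 3133 to 3215 in FLT3-ITD, against 3860 to 4507 in pMIG. That sum is mostly Nkg7, a cytotoxic granule gene, which differed by -0.47. Cd3d and Klrb1c differed by -0.38 and -0.02. The natural killer cell receptor gene Klrd1 differed by 1.89 (adjusted p = 0.0555 in limma, or 3.9e-06 with the variance trend), or 1.01 without background correction. Only 1 of the 4 differences, that of Klrd1, was positive. Of 11 mast cell, basophil and eosinophil genes, 10 were tested with 0 passing in either direction (6 lower with the variance trend), with a summed signal of 15086 to 16022 in FLT3-ITD, against 18324 to 19205 in pMIG. The part of these cells in the Itgae and Itgb7 values was not tested.

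Junctional immunoglobulin-type receptors differed in both directions. Jaml, also listed as Amica1, encodes a receptor of neutrophils, monocytes and some T cells that binds the epithelial protein CAR. It read 8.60 and 8.67 in FLT3-ITD, against 6.95 and 7.13 in pMIG. Its FLT3-ITD values were the highest above pMIG of any member, a fold of 3.02 (log2 difference 1.59, SE 0.13, 95% interval 1.26 to 1.93). Without background correction the log2 difference was 1.17. With that correction Jaml missed the threshold (adjusted p = 0.0557 in limma). It passed in limma under 8 of 11 alternatives, over which its adjusted p ranged from 8.59e-09 to 0.197. With 1 array left out its adjusted p was 0.359 to 0.433 in limma.

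F11r, which encodes JAM-A at tight junctions and on leukocytes and platelets, read 5.77 and 6.19 in FLT3-ITD, against 5.33 and 5.22 in pMIG. The FLT3-ITD arrays were both above the pMIG arrays but also stood apart from each other, and the difference was 0.71 (SE 0.18, adjusted p = 0.21 in limma) or 0.27 without background correction. Pecam1, an adhesion receptor at endothelial contacts that platelets and leukocytes also carry, read 8.92 and 9.01 in FLT3-ITD, against 8.56 and 8.49 in pMIG on its brighter probe. That probe differed by 0.44 (SE 0.12, adjusted p = 0.213 in limma), and the second Pecam1 probe, also detected on all arrays, by 0.03 (95% interval -0.32 to 0.38). The probes of Pecam1 thus did not read the same difference.

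Esam, which encodes a receptor of endothelial cells, platelets and stem cells, read 6.81 and 6.70 in FLT3-ITD, against 7.14 and 7.19 in pMIG. The groups did not overlap, and the difference was -0.41 (SE 0.12, adjusted p = 0.221 in limma), or -0.25 without background correction. Jam3, which encodes JAM-C, was detected on neither FLT3-ITD array and on both pMIG arrays, with log2 signals of 4.22 and 4.26 in FLT3-ITD, against 4.48 and 5.21 in pMIG. It is therefore given as at least 1.39-fold lower in FLT3-ITD on the background-corrected scale (adjusted p = 0.34 in limma). That bound rests on the second pMIG array, without which the log2 difference was -0.24, against -0.60 with all arrays, and without background correction it was -0.21, a smaller fold than the bound. Alcam, which encodes a receptor for Cd6, read 5.47 and 5.63 in FLT3-ITD, against 5.52 and 4.44 in pMIG, so 1 pMIG array lay between the FLT3-ITD arrays and the other, which did not detect the probe, below both (difference 0.57, 95% interval -0.42 to 1.56). Of these 6 genes, 0 passed in either direction.

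**Figure D2:**
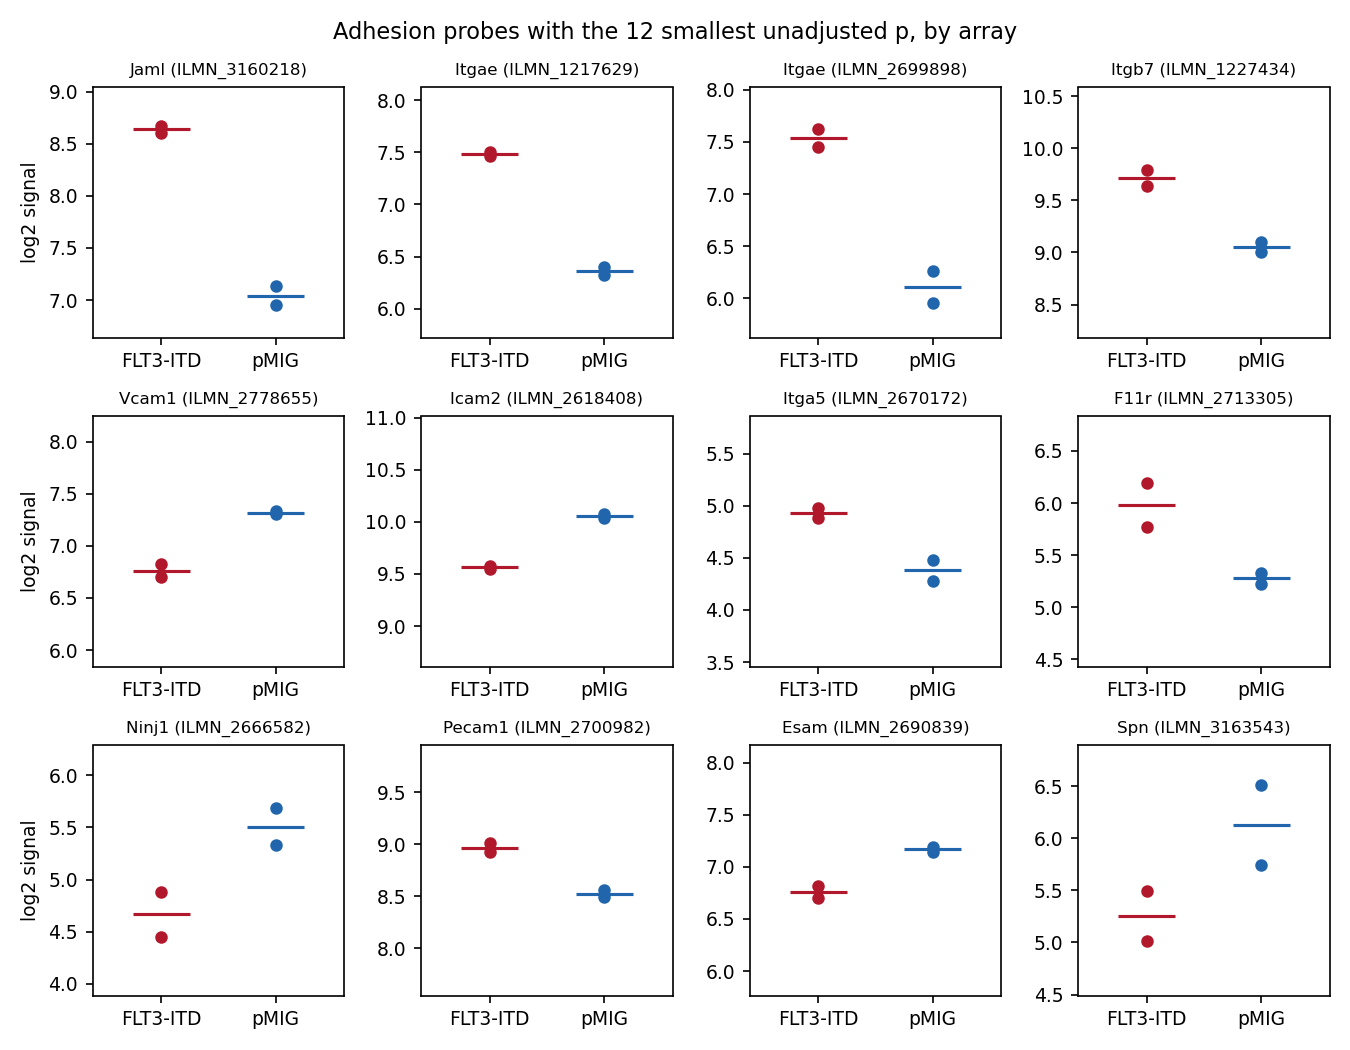
Log2 signal on each array for the 12 adhesion probes with the smallest unadjusted p, with FLT3-ITD in red on the left and pMIG in blue on the right of each panel, where points are arrays and bars are means of 2. All panels span the same number of log2 units, and the widest gap between groups is that of Jaml, 8.60 and 8.67 against 6.95 and 7.13.

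Counter-receptors that leukocyte integrins bind read lower in 2 of 3 cases. Vcam1, the ligand of α4β1 on stroma and on marrow macrophages, read 6.83 and 6.70 in FLT3-ITD, against 7.33 and 7.31 in pMIG. Icam2, a ligand of β2 integrins on endothelium, platelets and leukocytes, read 9.55 and 9.58 in FLT3-ITD, against 10.03 and 10.08 in pMIG. The arrays of a group lay close together for both genes and the groups did not overlap. Vcam1 differed by -0.56 (SE 0.12, 95% interval -0.87 to -0.24, adjusted p = 0.181 in limma), or -0.34 without background correction. Icam2 differed by -0.49 (SE 0.11, 95% interval -0.79 to -0.20, adjusted p = 0.191 in limma, or 0.000981 with the variance trend).

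Icam1, a ligand of LFA-1 and Mac-1 known as an NF-κB target, read 8.06 and 8.29 in FLT3-ITD, against 7.79 and 7.98 in pMIG. The gap between the groups, 8.06 against 7.98, was smaller than the spread within either, and the difference of 0.29 did not pass (SE 0.15, adjusted p = 0.397 in limma). Endothelial and stromal genes, whose cells carry Vcam1, Icam2, Pecam1 and Esam, were near background. Of 12 such genes 7 were tested, 0 passed in either direction, and Cdh5, Cldn5, Col1a1, Col3a1 and Sele were detected on no array. Their summed linear signal was 218 to 223 in FLT3-ITD, against 194 to 252 in pMIG.

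Platelet and megakaryocyte genes, whose cells carry Icam2, Pecam1, F11r and Esam, had a summed signal of 1872 to 2117 in FLT3-ITD, against 2671 to 2847 in pMIG. Of 11 such genes 7 were tested and 0 passed in either direction, or 5 lower with the variance trend, with Itgb3 detected on no array and Gp1ba and Gp6 not analysed here. Treml1, Vwf and Gp9 differed by -1.40, -1.08 and -0.81. Itga2b, the integrin αIIb subunit of platelets, which the set leaves out, read 8.84 and 8.88 in FLT3-ITD, against 8.61 and 8.42 in pMIG, a difference of 0.34 (adjusted p = 0.294 in limma). Of 10 stem and progenitor genes, whose cells also carry Esam, 7 were tested with 0 passing in either direction, and 1 of the 7 differences was positive. Cd34 differed by -0.62 and passed with the variance trend (adjusted p = 0.00694 in limma), and Myb differed by -0.56. The summed signal of the list was 3120 to 3124 in FLT3-ITD, against 3195 to 3321 in pMIG. That sum is mostly Gata2 and Meis1, which differed by -0.003 and 0.03. The part of platelet-lineage and progenitor cells in the values of Icam2 and Esam was not tested.

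None of the 4 tested probes of β2 integrins passed, and only that of Itgam had groups that did not overlap. Itgam, the αM subunit of Mac-1 that marks myeloid cells, read 7.12 and 7.07 in FLT3-ITD, against 6.80 and 6.88 in pMIG. The gap between its groups was wider than the spread within either, with a difference of 0.25 (SE 0.12, 95% interval -0.05 to 0.56, adjusted p = 0.355 in limma). Itgb2, the shared β2 subunit, read 6.14 and 6.11 in FLT3-ITD, against 6.21 and 5.77 in pMIG, and its groups overlapped (difference 0.13, 95% interval -0.35 to 0.61). Itgb2l, a relative of Itgb2 known from mouse neutrophils, read 9.58 and 9.64 in FLT3-ITD, against 9.71 and 9.56 in pMIG on its brighter probe. The Itgb2l probes differed by -0.03 (95% interval -0.35 to 0.30) and 0.12 (95% interval -0.28 to 0.52).

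Neutrophil genes were read beside them because neutrophils carry these β2 integrins and Jaml. Of 10 such genes 9 were tested and 0 passed in either direction, or 4 higher and 1 lower with the variance trend. Their summed linear signal was 123086 to 124028 in FLT3-ITD, against 109298 to 113481 in pMIG. The chemokine receptor gene Cxcr2 differed by 1.46 and the gelatinase gene Mmp9 by 0.92. The granule genes Ngp, Ltf and Camp differed by 0.03, 0.07 and -0.28, and Camp was the gene that passed as lower with the variance trend. Monocyte and macrophage genes, of which 8 of 10 were tested with 0 passing in either direction or 3 higher with the variance trend (Fcgr1, Mrc1 and Cd68), had a summed signal of 2385 to 2437 in FLT3-ITD, against 1927 to 2058 in pMIG. Immediate early and handling genes, which respond quickly to signals and to cell preparation, are given beside the members. Of 11 such genes 10 were tested with 0 passing in either direction, or 7 higher and 1 lower (Hspa8) with the variance trend, at a median difference of 0.50. Their summed signal was 14796 to 15599 in FLT3-ITD, against 11493 to 12367 in pMIG. The part of these cells and of handling in the Jaml value and in those of the other members was not tested.

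Integrins that bind matrix proteins had small or uncertain differences, and 0 of their 9 tested probes passed. Itgb1, the β1 subunit that pairs with most of the matrix α subunits, read 6.11 and 6.01 in FLT3-ITD, against 5.97 and 5.89 in pMIG on its brighter probe. That is a difference of 0.13 (95% interval -0.19 to 0.44), and the dimmer Itgb1 probe differed by 0.45 (95% interval -0.12 to 1.02). Itgb5, the β5 subunit that pairs with αv and binds vitronectin, read 6.36 and 6.99 in FLT3-ITD, against 7.16 and 7.33 in pMIG. Both FLT3-ITD values lay below pMIG, but were wider apart than the pMIG values, and the difference of -0.57 did not pass (SE 0.24, adjusted p = 0.334 in limma); it was -0.34 without background correction.

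Itga5, the fibronectin-binding α5 subunit, read 5.36 and 6.12 in FLT3-ITD, against 5.07 and 5.77 in pMIG on its brighter probe, whose groups overlapped. Its dimmer probe was detected on both FLT3-ITD arrays and on neither pMIG array, so it passed the detection filter through FLT3-ITD alone and is given as at least 1.46-fold higher there on the background-corrected scale (adjusted p = 0.198 in limma). Without background correction its log2 difference was 0.17, a smaller fold than that bound, against 0.55 with it. Itga1, a collagen-binding α subunit, differed by 0.39 (95% interval -0.09 to 0.86) with both FLT3-ITD arrays above pMIG. Itga6, a laminin-binding subunit, differed by -0.13, Itga9 by -0.07 and Itgav by 0.18, with overlapping groups in each case. Itga2, a further collagen-binding subunit, was detected on 1 FLT3-ITD array and no pMIG array and was not tested.

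Selplg, the selectin ligand, read 11.01 and 10.86 in FLT3-ITD, against 10.88 and 10.84 in pMIG. The groups overlapped, and the difference was 0.08 (SE 0.12, 95% interval -0.24 to 0.40, adjusted p = 0.791 in limma). Cd44, the hyaluronan receptor, which also serves as a selectin ligand, read 9.32 and 9.60 in FLT3-ITD, against 9.30 and 9.56 in pMIG on the brightest of its probes. Its difference there was 0.03 (95% interval -0.41 to 0.47), its 3 dimmer tested probes lay between -0.17 and 0.10, and another pair of probes was detected on no array.

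Spn, which encodes the sialomucin CD43, read 5.01 and 5.49 in FLT3-ITD, against 6.51 and 5.75 in pMIG. It had the largest negative difference of the set, -0.88 (SE 0.32, 95% interval -1.71 to -0.05, adjusted p = 0.282 in limma), or -0.35 without background correction. The groups did not overlap, but the pMIG arrays stood farther apart than the gap between the groups.

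Of the other leukocyte surface genes, Ninj1 stood out, and 0 of the 6 passed in either direction. Ninj1, which encodes ninjurin 1, a membrane protein needed for plasma membrane rupture in dying cells, read 4.88 and 4.45 in FLT3-ITD, against 5.68 and 5.33 in pMIG. It was detected on 1 FLT3-ITD array and on both pMIG arrays. The groups did not overlap and the difference was -0.84 (SE 0.21, 95% interval -1.41 to -0.28, adjusted p = 0.21 in limma), or -0.26 without background correction. Cd93, a receptor of early B lineage, myeloid and endothelial cells, read 8.59 and 8.63 in FLT3-ITD, against 8.62 and 9.16 in pMIG. The difference of -0.28 (SE 0.21, adjusted p = 0.557 in limma) came with 1 high pMIG array, and its groups overlapped. B lymphoid genes, of which 5 of 10 were tested with 0 passing in either direction (4 higher with the variance trend), had a summed signal of 1442 to 1500 in FLT3-ITD, against 785 to 801 in pMIG, with Ms4a1 detected on no array and Cd79a and Igll1 not analysed here. The part of B lineage cells in the Cd93 value was not tested.

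Cd47, which gives macrophages a signal not to engulf the cell, read 11.18 and 11.06 in FLT3-ITD, against 11.16 and 11.17 in pMIG, a difference of -0.04 (95% interval -0.36 to 0.27). The tetraspanin gene Cd53 differed by -0.01 (95% interval -0.31 to 0.29), Emb by -0.07 (95% interval -0.38 to 0.25) and Cd48 by -0.21 (95% interval -0.81 to 0.39). Their groups overlapped.

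**Figure D3:**
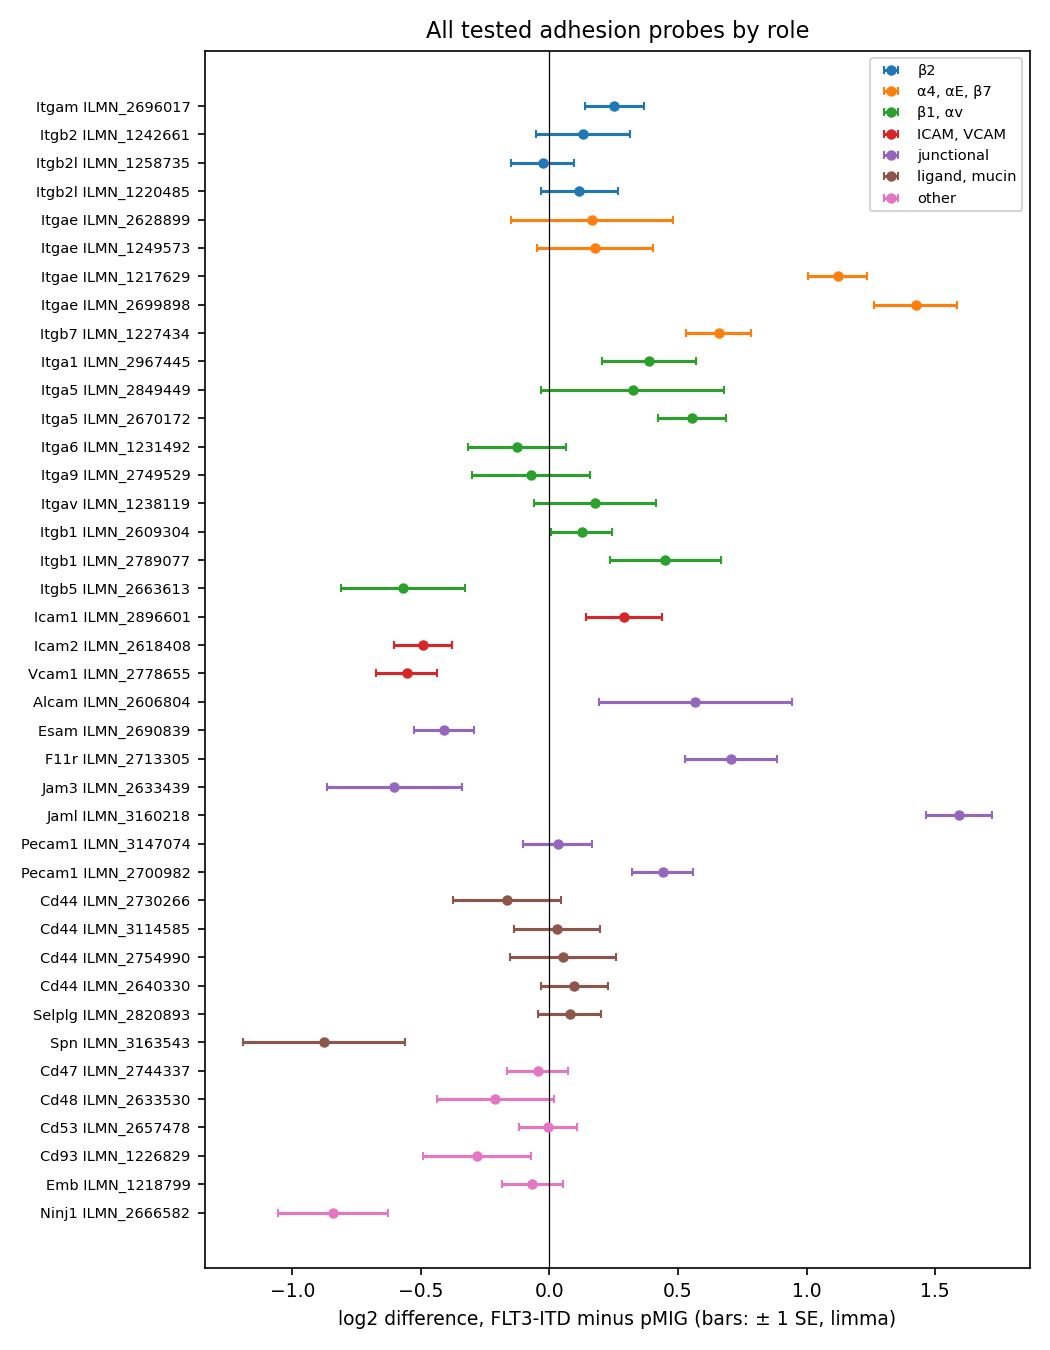
Log2 difference, FLT3-ITD minus pMIG, of the 40 tested adhesion probes (points) with 1 standard error to each side (bars), coloured by role. Jaml at 1.59 and a pair of Itgae probes at 1.42 and 1.12 lie farthest to the right, and Spn at -0.88 and Ninj1 at -0.84 farthest to the left.

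There were 6 members with more than 1 tested probe, which share a transcript source and are not replicates. Their probes read the same direction for Itgae, Itga5, Itgb1 and Pecam1, though of different size, and both directions around 0 for Cd44 and Itgb2l. For Itgae the bright probes differed by over 1 and the dim ones by less than 0.2.

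**Figure D4:**
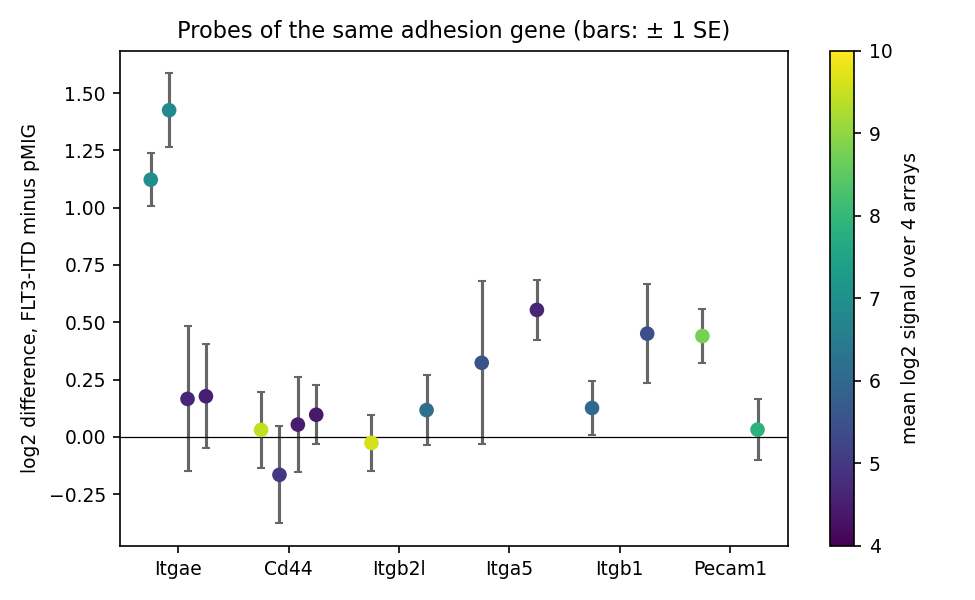
Log2 difference, FLT3-ITD minus pMIG, of each tested probe of the 6 genes with several, where bars are 1 standard error to each side and colour is the mean log2 signal over 4 arrays. The bright Itgae probes sit at 1.12 and 1.42 and the dim ones at 0.17 and 0.18, while Pecam1 probes sit at 0.44 and 0.03.

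Genes that act with these receptors were read from lists chosen with earlier results of these data known. Proteins that activate integrins from inside the cell had a median difference of 0.09 over 16 tested genes, with 0 passing in either direction, or 2 higher with the variance trend. Fermt3, which encodes the kindlin of blood cells, read 10.10 and 9.85 in FLT3-ITD, against 9.58 and 9.51 in pMIG, a difference of 0.43 (adjusted p = 0.252 in limma). Apbb1ip, which encodes RIAM and links Rap1 to talin, differed by 0.46. Rapgef1, an exchange factor for Rap1, differed by 0.39 on its brighter tested probe and by -0.02 on the other. Proteins that signal from bound integrins had a median of 0.12 over 20 tested genes, with 0 passing in either direction, or 3 higher and 1 lower with the variance trend. Pxn, which encodes paxillin, read 8.23 and 8.003 in FLT3-ITD, against 7.52 and 7.27 in pMIG, a difference of 0.73 (adjusted p = 0.183 in limma). The parvin genes Parva and Parvg differed by -0.46 and -0.40.

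Extracellular ligands of integrins and Cd44 had a median of -0.16 over 13 tested genes, with 0 passing in either direction, or 2 higher with the variance trend. Cdh1, which encodes E-cadherin, the ligand of αEβ7, read 9.06 and 9.08 in FLT3-ITD, against 8.13 and 8.31 in pMIG. Its groups did not overlap, and the difference was 0.85 (SE 0.13, adjusted p = 0.131 in limma, or 4.21e-05 with the variance trend). The collagen gene Col4a1 differed by 0.74 and the fibrillin gene Fbn1 by -0.62.

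Selectins and the enzymes that build their ligands had a median of 0.08 over 14 tested genes, with 0 passing in either direction, or 5 higher and 1 lower with the variance trend. Tpst1, a tyrosine sulfotransferase of the kind that modifies PSGL-1, read 8.19 and 8.10 in FLT3-ITD, against 7.23 and 7.27 in pMIG, a difference of 0.89 (adjusted p = 0.106 in limma). Podxl, which encodes the sialomucin podocalyxin, differed by 0.86. Selp, which encodes P-selectin, read 8.56 and 8.61 in FLT3-ITD, against 7.996 and 7.84 in pMIG (adjusted p = 0.164 in limma). Sele was detected on no array. Other adhesion genes of leukocytes had a median of -0.03 over 23 tested genes, of which 11 had a positive difference. Of these genes 0 passed in either direction, or 3 higher with the variance trend, led by Cd33 at 0.72 and the sialomucin gene Cd164 at 0.44. Ncam1, near background, differed by -0.44. Of the integrin subunits that the set leaves out, 5 of 12 were tested and 0 passed in either direction, with Itgb6 at least 1.58-fold higher in FLT3-ITD (a log2 difference of 0.22 without background correction, which is less than that) and Itgad differing by -0.58.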

How the data were processed

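The authors deposited 1 non-normalized intensity and 1 detection p-value per probe and array, per the file headers; the scanner software is not named in the labels or headers. A second deposited table holds log2 values whose making is not stated. Their array medians were 4.79, 4.79, 4.80 and 4.79, their order within each array was that of the intensities, and they differed from the values used here by at most 0.232, so they served only as an alternative. The scale is taken as log2, and the centring is unknown.

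Intensities were corrected with limma 3.58.1 (R 4.3.3) by normexp, with background moments inferred from the detection p-values (offset 16), put on a log2 scale and quantile-normalized. Estimated background was 94.7 to 97.9, against median intensities of 103.1 to 107.9. Probes with a detection p under 0.05 on at least 2 arrays (14178) were fitted together with limma's lmFit and eBayes, two-sided, with Benjamini-Hochberg adjustment and a threshold of 0.05. Only the fit was tested on simulated data, as log2 values of the tested probes with spread drawn from the model without a variance trend. Background correction, normalization and the detection filter were not tested that way. The number of arrays limits the precision. Symbols came from the platform annotation (24279 probes with 1 symbol, 0 with several, 2233 with none listed), and matching identifiers to the RefSeq gene table (GRCm38.p6) changed 0 symbols.

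Where no array of a group detected a probe, the fold is a bound: the mean of the brighter group over a floor, taken for each dim array as its lowest detected value or the measured value, whichever was larger. Summed marker signals add the linear signal of each gene's brightest tested probe. Named genes are all members, the integrins and selectins outside the set, and up to 3 genes of smallest unadjusted p in each pathway list; single marker genes were named after their values were seen. The members, lists and rules were chosen with earlier results of these data known. Replicate numbers are shared between groups, but deviations of same-numbered arrays from their group means correlated at -0.0148, so the numbers were not taken as pairs.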

Additional observations from a re-analysis of the deposited data

How the results depend on the processing

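No tested member probe changed direction under the 11 alternatives that kept all arrays. Over these and the 4 settings that leave out 1 array, 29 of 576 recomputed probe differences newly passed, none of them with an array left out. The count of member probes called, 0 of 40, became 7 of 40 without background correction, 3 of 40 with median centring and 1 of 40 with the deposited log2 table. It was 3 of 31 where probes had to be detected on all 4 arrays and 1 of 35 with a detection p under 0.01. It was 6 of 40 with a variance trend, 7 of 40 with a variance trend and robust fit, and 1 of 30 with 1 probe per gene. The count over all probes, 15 (0.106%), became 963 (6.79%), 97 (0.684%), 45 (0.317%), 85 (0.743%), 43 (0.339%), 1123 (7.92%), 1183 (8.34%) and 20 (0.201%) in the same order. Jaml was among the members called in each of these 8 settings. Same-numbered arrays showed no shared deviation (correlation -0.0148), which with 2 arrays a group cannot show whether the samples were paired. With the number as a replicate block 7 probes were called and 0 members. With 1 array left out, where the lone array is assumed to vary like the other group, 0 probes and 0 members were called in limma, with 1565 to 1813 probes at an unadjusted p under 0.05, and the count of members with groups apart, 19, was 28 to 31, since fewer arrays overlap less often. In those 4 settings 24 small differences changed sign. Their ranges were -0.055 to 0.70 for Itga5 (ILMN_2849449), -0.30 to 0.045 for Itga6, -0.35 to 0.21 for Itga9, -0.26 to 0.59 and -0.084 to 0.44 for the dim Itgae probes, -0.14 to 0.50 for Itgav, -0.088 to 0.35 for Itgb2, -0.10 to 0.049 and -0.039 to 0.27 for Itgb2l, -0.076 to 0.14 for the dimmer Pecam1 probe, -0.11 to 0.17, -0.37 to 0.038 and -0.17 to 0.28 for Cd44 (ILMN_3114585, ILMN_2730266 and ILMN_2754990), -0.11 to 0.018 for Cd47, -0.43 to 0.0089 for Cd48 and -0.042 to 0.030 for Cd53. The cause of the other changes was not tested. No label or header names a chip or scan batch, so a chip block was not run. Signals near background limit Spn, Ninj1, Jam3, F11r and Itga5, and also Alcam, Cd48, Itga6, Itga9 and Itgav. Itgb1 and Itgb2 read within the range of Spn. A small difference on such dim probes does not show that a transcript was unchanged.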

Other observations

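Binding partners of members were looked up after the members' values had been seen. Sirpa, the receptor for Cd47 on myeloid cells, read 11.90 and 11.80 in FLT3-ITD, against 11.51 and 11.59 in pMIG on its brighter probe, a difference of 0.30 (SE 0.12, adjusted p = 0.308 in limma, or 0.0151 with the variance trend), while Cd47 itself differed by -0.04. Cxadr, which encodes CAR, the partner of Jaml, had 3 probes. The single tested Cxadr probe differed by 0.04 (adjusted p = 0.971 in limma), and it was detected on both FLT3-ITD arrays and 1 pMIG array. Cd6, the T cell receptor for Alcam, differed by 0.46, 0.29 and 0.17 on its tested probes, and 0 of them passed (smallest adjusted p = 0.301 in limma). Madcam1, the ligand of α4β7, was detected on 1 pMIG array and on no FLT3-ITD array and was not tested.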
